A study of Homo sapiens with 11 samples.

Results

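The 10 genes described here are receptors, ligands, secreted antagonists and a feedback gene of the Wnt pathway, measured in A549 cells exposed to cigarette smoke condensate (CSC). They are the frizzled receptors FZD2, FZD6, FZD7 and FZD8, the co-receptor LRP6, the ligands WNT5A and WNT7B, the antagonists DKK1 and DKK3, and AXIN2. They were chosen by name with the levels in these libraries already known, FZD8 for its difference between CSC and DMSO cells. All 10 were matched on gene symbol among the 23608 symbols of the deposited tables, and each stood at 1 locus. For the members, the values in CSC and DMSO libraries are therefore a description, and a member's place among the genes called by the fit is not independent evidence.

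A549 is an established human lung adenocarcinoma line of epithelial origin, and CSC is the particulate matter of tobacco smoke collected and taken up in a solvent. The groups were CSC for 48 hours (3 libraries), the vehicle DMSO for 48 hours (2 libraries, numbered 2 and 3), CSC for 2 weeks (3 libraries) and DMSO for 2 weeks (3 libraries). The dose of CSC is labelled as 20 µM, although a mixture has no molarity. Total RNA was depleted of ribosomal RNA and sequenced, and values are in FPKM. This unit scales fragments to the length of the transcript and to the fragments mapped. Levels of different genes can be set side by side only as far as the transcript lengths used are right, and the annotation is not given.

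Wnt proteins are secreted lipid-modified ligands that bind a frizzled receptor together with the co-receptor LRP5 or LRP6. In the canonical branch, binding stalls the destruction complex built on AXIN and APC, β-catenin accumulates, and TCF and LEF factors switch on target genes such as AXIN2, whose product feeds back to restrain the pathway. In the lung the pathway is known from branching of the embryonic airways and from renewal of alveolar epithelium, and other branches act through planar cell polarity proteins without β-catenin.

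The libraries were alike in the number of genes detected and in correlation, but not in the sum of FPKM. That sum lay between 338507 and 360969 in the 48-hour libraries and between 363873 and 484053 in the 2-week libraries. In a library 11742 to 12051 genes reached 1 FPKM, and correlations between libraries lay between 0.984 and 0.994. Read depth is not given. Steps of 1 read among the lowest values put the other libraries at 0.928 to 1.353 times the depth of DMSO 48 h replicate 2, apart from CSC 2 weeks replicate 2 at 2.919 times. The exposure left a mark in CYP1B1, an enzyme of smoke hydrocarbon metabolism induced through the aryl hydrocarbon receptor (AHR), which averaged 47.1 ± 19.6 FPKM in CSC cells and 6.39 ± 1.36 FPKM in DMSO cells at 48 hours, and 61.8 ± 9.34 FPKM in CSC cells and 11.4 ± 1.34 FPKM in DMSO cells at 2 weeks (SD). Epithelial markers were present, with KRT8 at 573 to 1745 FPKM and EPCAM at 2.59 to 8.15 FPKM. The lung lineage factor NKX2-1 and the surfactant genes SFTPA1, SFTPB and SFTPC did not pass 0.261 FPKM in any library, and the leukocyte markers PTPRC and CD3E did not pass 0.092 FPKM. The macrophage marker CD68 stood at 3.81 to 7.24 FPKM in every library.

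The 250 bases upstream of the RefSeq start are shown for FZD8, the member called between the exposures, and for DKK1, the member with the highest level. RefSeq promoters (its GRCh38.p14 table) were taken for 3 of the 10 members. Any entry for FZD6 was left out before this count. Both sequences were placed on GRCh37 by exact match. Capitals mark every copy, on either strand, of 2 short motifs. The motif GCGTG, which reads CACGC from the opposite strand, is the core bound by AHR with its partner ARNT. The motif CTTTG, which reads CAAAG from the opposite strand, is the core bound by TCF and LEF factors.
FZD8, chr10:35931225-35931474, minus strand: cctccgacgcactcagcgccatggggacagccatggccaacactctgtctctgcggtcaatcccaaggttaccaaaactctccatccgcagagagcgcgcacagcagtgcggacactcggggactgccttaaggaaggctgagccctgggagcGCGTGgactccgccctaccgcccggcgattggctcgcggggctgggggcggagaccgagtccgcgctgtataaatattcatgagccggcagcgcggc
DKK1, chr10:54073791-54074040, plus strand: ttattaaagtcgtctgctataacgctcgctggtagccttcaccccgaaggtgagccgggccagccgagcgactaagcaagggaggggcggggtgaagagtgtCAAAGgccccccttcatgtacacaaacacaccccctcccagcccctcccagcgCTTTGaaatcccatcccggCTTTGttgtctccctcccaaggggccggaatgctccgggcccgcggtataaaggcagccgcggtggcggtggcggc
The FZD8 window held 1 copy of GCGTG and 0 of CTTTG, and the DKK1 window held 0 of GCGTG and 3 of CTTTG. Of 35116 RefSeq promoter windows of the same 250 bases, 32.2% held GCGTG and 42.1% held CTTTG on either strand, so both are common. A match is a description of the letters and says nothing of binding. The gene model of the deposited tables starts 862 bases downstream of the RefSeq start for FZD8 and at the same base for DKK1.

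FZD8, a receptor of the frizzled family that binds Wnt ligands with LRP5 or LRP6, was lower in CSC cells at both times. It lies at chr10:35927177-35930362 (hg19, minus strand). At 48 hours its level was 6.21, 6.03 and 7.80 FPKM in CSC libraries, against 11.18 and 11.59 FPKM in DMSO libraries. At 2 weeks it was 5.66, 4.55 and 5.45 FPKM in CSC libraries, against 11.86, 12.01 and 10.26 FPKM in DMSO libraries. Every CSC library lay below every DMSO library of its time, with a gap wider than the range within any group. The CSC mean was 58.7% of the DMSO mean at 48 hours and 45.9% at 2 weeks.

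On the log2(FPKM + 0.5) scale FZD8 differed by -0.73 ± 0.14 at 48 hours (95% interval -1.03 to -0.44) and by -1.06 ± 0.12 at 2 weeks (95% interval -1.32 to -0.79), as CSC minus DMSO with the standard error of the limma fit. A pseudocount of 0.5 makes such differences smaller for low genes than the ratio of FPKM. The difference between the effects at the 2 times was -0.32 ± 0.18 (95% interval -0.72 to 0.07; limma adjusted p = 0.726). In bulk RNA, fewer cells expressing FZD8 and less FZD8 RNA per cell cannot be told apart.

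Means of the epithelial markers were lower in CSC than in DMSO cells for some markers and higher for others. The summed level of the 6 epithelial markers was 1226 to 1596 FPKM in CSC libraries and 1923 to 2251 FPKM in DMSO libraries at 48 hours, and 2098 to 2770 FPKM in CSC libraries and 3061 to 3555 FPKM in DMSO libraries at 2 weeks. KRT8 and KRT18, keratins of simple epithelia, make up nearly all of that sum. Of the 6, KRT8, KRT18 and CDH1 had CSC means at 62.6% to 66.4% of the DMSO means at 48 hours, while EPCAM, KRT19 and CLDN4 stood at 137% to 145%. At 2 weeks 5 of the 6 were at 67.3% to 77.3%, and KRT19 was at 108%. The 4 fibroblast markers summed to 3.97 to 5.15 FPKM in CSC and 4.03 to 6.48 FPKM in DMSO libraries at 48 hours, and 7.12 to 9.40 FPKM in CSC and 10.8 to 11.7 FPKM in DMSO libraries at 2 weeks. Nearly all of that was COL1A1, while COL1A2 and DCN were listed at 0 in every library. The part of these markers in the FZD8 result was not tested.

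**Figure D1:**
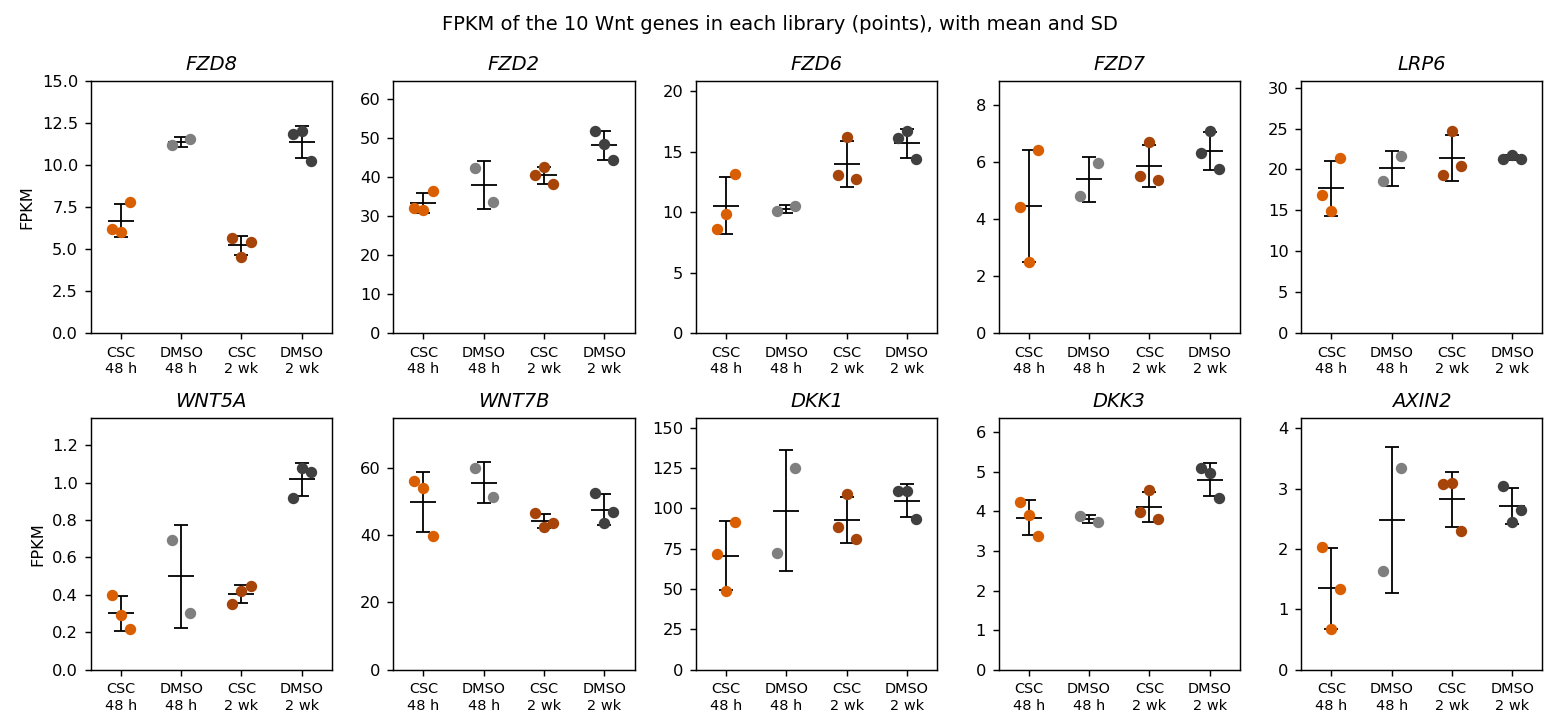
FPKM of the 10 Wnt genes (vertical axes from 0, each gene on its own scale) in the 4 groups, CSC beside DMSO at 48 hours and then at 2 weeks. Each point is 1 library, the long bar is the group mean and the error bar the SD. The FZD8 points of CSC libraries lie between 4.55 and 7.80 FPKM, all under the DMSO points, while AXIN2, LRP6, FZD7 and DKK1 overlap at both times.

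Across all genes, 12506 reached 1 FPKM in at least 2 libraries and entered the limma fit, with Benjamini-Hochberg adjustment over all of them and a call at an adjusted p under 0.05. At 48 hours 0.104% of the genes tested were called higher in CSC cells and 0.184% lower, and at 2 weeks 3.01% were called higher and 2.40% lower. FZD8 was the 1 member of 10 called lower at each time, and 0 members were called higher. Differences between the 2 CSC effects were called for 0.0400% of genes, none of them a member. Over the 10 members the median log2 difference was -0.24 at 48 hours, beside 0.00 over all genes, and -0.17 at 2 weeks, beside 0.09 over all genes. The difference was below 0 for 8 members at 48 hours and for 9 at 2 weeks. The limma fit gave 2 of the 10 members an unadjusted p under 0.05 at 48 hours, FZD8 and AXIN2, beside 8.49% of all genes. At 2 weeks it gave 2 of the 10, FZD8 and WNT5A, beside 24.6% of all genes. WNT5A passed the filter only through DMSO libraries at 2 weeks, so its place in this count already reflects its difference.

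The 48-hour call of FZD8 lay close to the threshold, with a limma adjusted p of 0.0481, while at 2 weeks it was 4.36e-04. The 48-hour call was lost without any 1 of 9 libraries, at an adjusted p of 0.141 and 0.108 without CSC 48 h replicates 1 and 2, 0.200 and 0.297 without DMSO 48 h replicates 2 and 3, 0.0562 and 0.0903 without CSC 2 weeks replicates 1 and 3, and 0.0909, 0.0880 and 0.0715 without DMSO 2 weeks replicates 1, 2 and 3. In these and the other alternatives run, 23 in all, the 48-hour difference lay between -0.84 and -0.67. At 2 weeks FZD8 was called in all 23, with differences between -1.19 and -0.97.

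**Figure D2:**
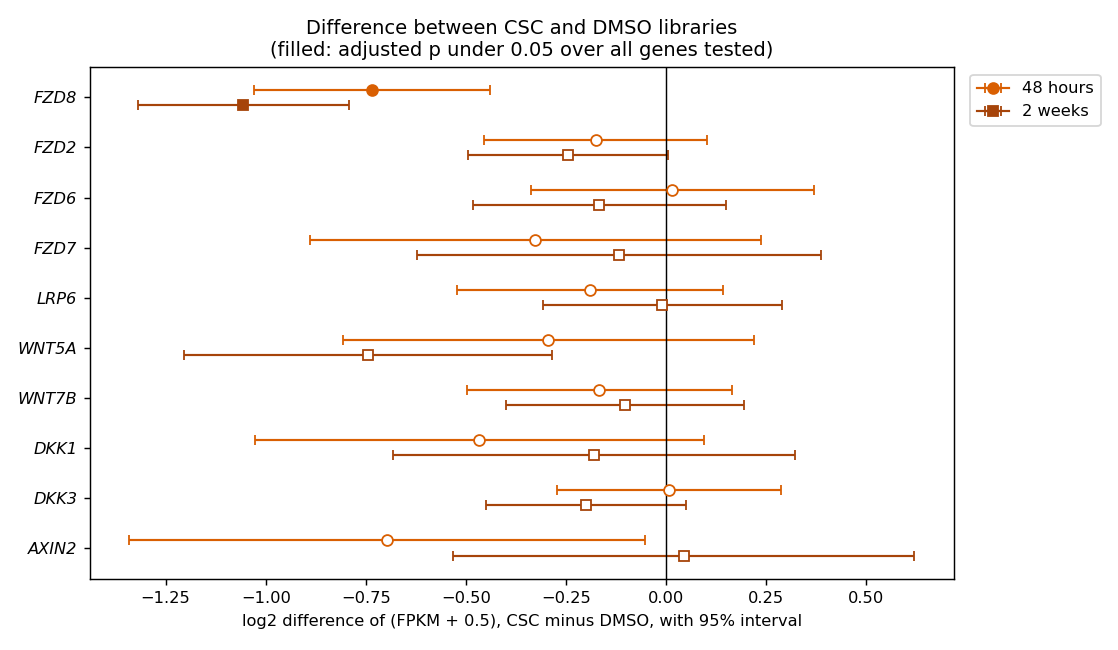
Log2 difference of (FPKM + 0.5), CSC minus DMSO, for each of the 10 genes at 48 hours (circles) and at 2 weeks (squares), with 95% intervals of the limma fit. Filled symbols were called over all genes tested. FZD8 has the 2 filled symbols, at -0.73 and -1.06, and the AXIN2 interval at 2 weeks, -0.53 to 0.62, spans 0.

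FZD2, the most abundant frizzled receptor in these cells, was lower in CSC cells at 2 weeks without being called. Its level at 48 hours was 32.0, 31.6 and 36.4 FPKM in CSC libraries, against 42.2 and 33.6 FPKM in DMSO libraries, and the groups overlapped. At 2 weeks it was 40.7, 42.6 and 38.3 FPKM in CSC libraries, against 51.7, 48.4 and 44.3 FPKM in DMSO libraries, and every CSC library lay below every DMSO library. The log2 difference was -0.18 ± 0.13 at 48 hours (95% interval -0.46 to 0.10) and -0.25 ± 0.11 at 2 weeks (95% interval -0.49 to 0.00), and neither was called. Groups lay apart in this direction for 11.8% of all genes at 48 hours and for 9.84% at 2 weeks. Among the members, FZD8 was so at 48 hours, and FZD8, FZD2 and WNT5A at 2 weeks. WNT5A entered the fit only through DMSO libraries at 2 weeks, the group where it is high.

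FZD6, which is best known for planar cell polarity and lies at chr8:104310661-104345094 (hg19), had overlapping levels in the 2 exposures. It had 8.64, 9.86 and 13.2 FPKM in CSC libraries and 10.1 and 10.5 FPKM in DMSO libraries at 48 hours. At 2 weeks it had 13.1, 16.2 and 12.7 FPKM in CSC libraries and 16.1, 16.7 and 14.4 FPKM in DMSO libraries. The log2 difference was 0.02 ± 0.16 (95% interval -0.34 to 0.37) at 48 hours and -0.17 ± 0.15 (95% interval -0.48 to 0.15) at 2 weeks.

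FZD7, another receptor that can signal through β-catenin, was the scarcest of the 4 frizzled members in DMSO cells. It had 4.43, 2.49 and 6.40 FPKM in CSC libraries and 4.82 and 5.95 FPKM in DMSO libraries at 48 hours, and 5.49, 6.70 and 5.35 FPKM in CSC libraries and 6.32, 7.06 and 5.74 FPKM in DMSO libraries at 2 weeks. Both pairs of groups overlapped. The log2 differences were -0.33 ± 0.26 (95% interval -0.89 to 0.24) at 48 hours and -0.12 ± 0.23 (95% interval -0.62 to 0.39) at 2 weeks. Their intervals would still admit a difference of the size seen for FZD8 at 48 hours, though not at 2 weeks.

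FZD8 therefore took a smaller share of the frizzled transcripts in CSC cells. Of the summed FPKM of the 10 frizzled genes, FZD8 made up 9.87 ± 0.307% in CSC and 14.2 ± 1.12% in DMSO libraries at 48 hours, and 6.46 ± 1.14% in CSC and 11.3 ± 0.245% in DMSO libraries at 2 weeks (SD, n = 3, 2, 3 and 3). FZD2 held 49.5 ± 2.43% in CSC and 46.9 ± 5.04% in DMSO libraries at 48 hours, and 49.7 ± 1.53% in CSC and 48.0 ± 1.40% in DMSO libraries at 2 weeks. The sum itself was 67.6 ± 8.46 FPKM in CSC and 80.5 ± 4.39 FPKM in DMSO libraries at 48 hours, and 81.5 ± 6.22 FPKM in CSC and 100.3 ± 6.74 FPKM in DMSO libraries at 2 weeks. FZD8 contributed 4.70 of the 12.9 FPKM by which the CSC mean of the sum was below the DMSO mean at 48 hours, and FZD2 contributed 4.57. At 2 weeks FZD8 contributed 6.16 of 18.7 FPKM and FZD2 contributed 7.64. FZD10 was listed at 0 in all libraries but 1, where it reached 0.0421 FPKM.

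**Figure D3:**
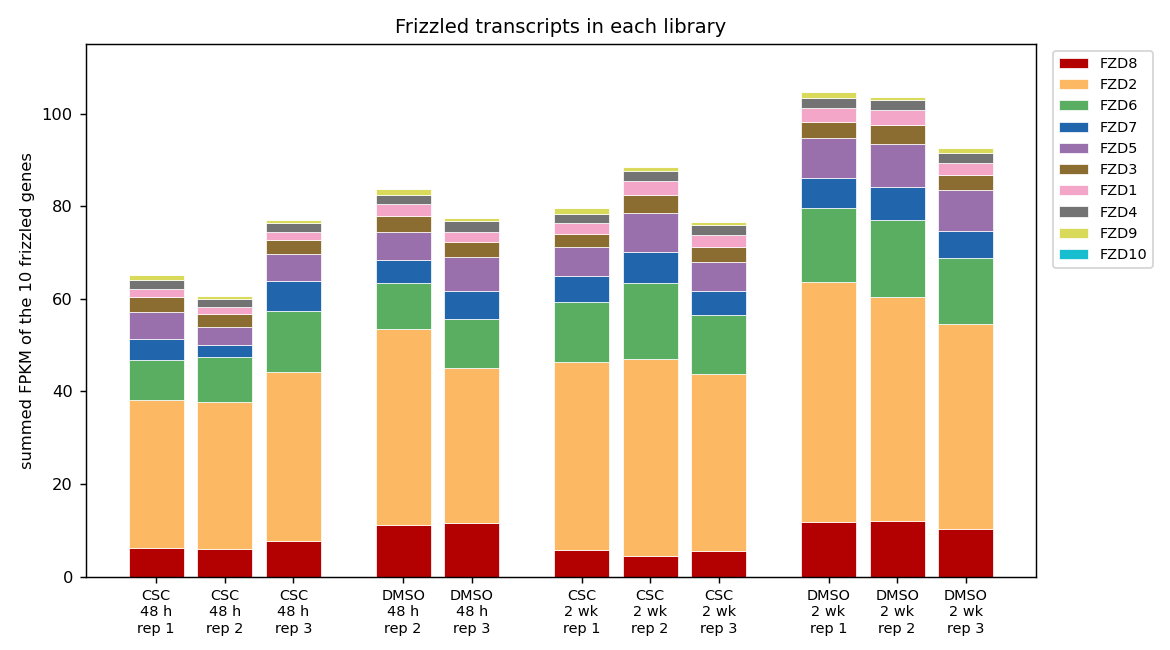
Summed FPKM of the 10 frizzled genes in each of the 11 libraries, stacked by gene from 0, with CSC left of DMSO at each time. FZD8 is the dark red segment at the base, and its height in CSC libraries, 4.55 to 7.80 FPKM, is below that in DMSO libraries, 10.26 to 12.01 FPKM. FZD2 is the tallest segment in every library.

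The place of FZD8 among the frizzled members differed between groups. Any order of genes by FPKM rests on the transcript lengths used, which are not known. The FZD8 gene model of the deposited values starts 862 bases downstream of the RefSeq start. In DMSO cells at 48 hours FZD8 averaged 11.4 FPKM, above FZD6 at 10.3 FPKM, and the libraries of the 2 genes did not overlap. In CSC cells at 48 hours it averaged 6.68 FPKM, below FZD6 at 10.6 FPKM and overlapping FZD7 at 4.44 FPKM. In CSC cells at 2 weeks its mean of 5.22 FPKM was below the FZD7 mean of 5.85 FPKM, again with overlapping libraries, whereas in DMSO cells at 2 weeks FZD8 at 11.4 FPKM stood above FZD7 at 6.38 FPKM with no overlap. FZD8 was below FZD6 at 15.7 FPKM in that DMSO group too, again with no overlap. DKK1 had the highest mean in each group, LRP6 the next below WNT7B and FZD2, and DKK3, AXIN2 and WNT5A the lowest 3. WNT7B had a higher mean than FZD2 in all groups but DMSO at 2 weeks, and the 2 genes overlapped each other at 2 weeks in both exposures.

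LRP6, a co-receptor that frizzleds need for β-catenin signalling, had similar means in the 2 exposures at 2 weeks. It had 16.9, 14.9 and 21.4 FPKM in CSC libraries and 18.6 and 21.7 FPKM in DMSO libraries at 48 hours, and 19.3, 24.6 and 20.4 FPKM in CSC libraries and 21.3, 21.8 and 21.3 FPKM in DMSO libraries at 2 weeks. At both times the groups overlapped. The log2 difference was -0.19 ± 0.15 (95% interval -0.52 to 0.14) at 48 hours and -0.01 ± 0.14 (95% interval -0.31 to 0.29) at 2 weeks. LRP6 lies at chr12:12268961-12419811 (hg19, minus strand), and BCL2L14 overlaps it on the other strand over 95058 bases. The strand setting is not given in the sources used here, but BCL2L14 did not pass 0.505 FPKM.

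WNT5A, a ligand best known for signalling without β-catenin, was scarce and was lower in CSC cells at 2 weeks. Its level was 0.35, 0.42 and 0.45 FPKM in CSC libraries, against 0.92, 1.08 and 1.05 FPKM in DMSO libraries at that time, and the groups lay apart. At 48 hours it was 0.40, 0.29 and 0.22 FPKM in CSC libraries, against 0.69 and 0.30 FPKM in DMSO libraries, and the groups overlapped. The CSC mean at 2 weeks was 39.9% of the DMSO mean, and the log2 difference was -0.74 ± 0.21 (95% interval -1.20 to -0.29), against -0.29 ± 0.24 (95% interval -0.81 to 0.22) at 48 hours. With a limma adjusted p of 0.0601 at 2 weeks it was not called, and without CSC 48 h replicate 3 it was called (adjusted p = 0.0437). WNT5A passed the filter on low values only through 2 DMSO libraries at 2 weeks, the group where it is high, so its place among the genes tested already reflects this difference.

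WNT7B, the ligand with the highest level here and known from lung development, was not set apart by the exposure. It had 56.0, 53.9 and 39.7 FPKM in CSC libraries and 59.9 and 51.3 FPKM in DMSO libraries at 48 hours, and 46.5, 42.5 and 43.6 FPKM in CSC libraries and 52.4, 43.6 and 46.8 FPKM in DMSO libraries at 2 weeks. The groups overlapped at both times, with log2 differences of -0.17 ± 0.15 at 48 hours and -0.10 ± 0.14 at 2 weeks.

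DKK1, a secreted antagonist that binds LRP5 and LRP6 and is itself a target of β-catenin, had the highest level of the members and varied widely at 48 hours. It had 71.8, 49.0 and 91.5 FPKM in CSC libraries and 72.1 and 124.9 FPKM in DMSO libraries at 48 hours. At 2 weeks it had 88.3, 108.9 and 81.2 FPKM in CSC libraries and 110.5, 110.7 and 93.2 FPKM in DMSO libraries. The groups overlapped at both times. The log2 difference was -0.47 ± 0.26 (95% interval -1.03 to 0.09) at 48 hours and -0.18 ± 0.23 (95% interval -0.68 to 0.32) at 2 weeks.

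DKK3, a relative of DKK1 whose action on Wnt signalling is less settled, had 4.24, 3.91 and 3.38 FPKM in CSC libraries and 3.88 and 3.74 FPKM in DMSO libraries at 48 hours. At 2 weeks it had 3.99, 4.54 and 3.80 FPKM in CSC libraries and 5.09, 4.97 and 4.33 FPKM in DMSO libraries. These groups overlapped too, and the log2 difference was 0.01 ± 0.13 at 48 hours, where it turned negative under 3 alternatives and without any 1 of 3 libraries, and -0.20 ± 0.12 (95% interval -0.45 to 0.05) at 2 weeks.

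AXIN2, a scaffold of the destruction complex and the usual readout of β-catenin activity, had overlapping levels in the 2 exposures at each time. Its CSC mean was 54.3% of the DMSO mean at 48 hours and 104% at 2 weeks. At 2 weeks it had 3.08, 3.09 and 2.30 FPKM in CSC libraries, against 3.04, 2.45 and 2.64 FPKM in DMSO libraries. At 48 hours it had 2.02, 0.68 and 1.34 FPKM in CSC libraries, against 1.63 and 3.34 FPKM in DMSO libraries. The log2 difference was 0.04 ± 0.27 (95% interval -0.53 to 0.62) at 2 weeks and -0.70 ± 0.30 (95% interval -1.34 to -0.05) at 48 hours, and neither was called. The sign at 2 weeks turned negative under each of the 3 other scalings. An annotated protein-coding gene on the same strand, ENSG00000266076, overlaps AXIN2 over 23521 bases and has no value of its own here. The 2-week interval of AXIN2 ended at -0.53, above the FZD8 value of -1.06, while its 48-hour interval held the FZD8 value of -0.73.

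The spread of AXIN2 at 48 hours lay mainly between 2 libraries. CSC 48 h replicate 2 had the lowest level of all 11 libraries for 5 of the 10 members, AXIN2, DKK1, FZD2, FZD7 and LRP6, while DMSO 48 h replicate 3 had the highest for AXIN2 and DKK1. The deposited bounds of AXIN2 in them, 0.402 to 0.928 FPKM in the CSC library and 2.68 to 3.97 FPKM in the DMSO library, do not meet. The same CSC library was also the lowest of the 11 for 3 of the 6 epithelial markers, with CDH1, the epithelial cadherin, at 2.51 FPKM, and had the lowest CYP1B1 of the CSC libraries at 26.0 FPKM. How often CSC 48 h replicate 2 was the lowest over all genes was not counted, so these counts have no share to stand beside. The part of these values in the AXIN2 result was not tested.

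No member was called between the 2 times in DMSO cells. Between DMSO at 2 weeks and DMSO at 48 hours 0.768% of genes were called in either direction, and 0 of the 10 members. The limma fit gave 12.8% of genes and 4 of the 10 members an unadjusted p under 0.05. The median log2 difference was 0.20 over the members and 0.09 over all genes. FZD8 averaged 11.4 FPKM in both groups, with a log2 difference of -0.00 ± 0.14 (limma adjusted p = 0.995). Every DMSO library at 2 weeks lay above both at 48 hours for 28.8% of all genes and for 4 of the 10 members, FZD2, FZD6, WNT5A and DKK3. WNT5A is in both of these member counts but entered the fit only through DMSO libraries at 2 weeks. Its place in them is therefore not independent of the difference. The difference was 0.59 ± 0.16 on the log2 scale for FZD6 (adjusted p = 0.125), 0.63 ± 0.24 for WNT5A (adjusted p = 0.276) and 0.35 ± 0.13 for FZD2 (adjusted p = 0.266). FZD6 was called without CSC 48 h replicate 3 (adjusted p = 0.0382). These comparisons share their DMSO libraries with the CSC comparisons.

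The other genes of the pathway came from 10 lists by role, which name 125 genes besides the members, and 79 of them entered the fit. At 48 hours 1 was called lower and 0 were called higher in CSC cells, and 52 of the 79 differences were negative. At 2 weeks 3 were called lower and 1 was called higher, with 37 differences negative. These calls stand beside the shares over all genes given above, 0.184% lower at 48 hours and 2.40% lower and 3.01% higher at 2 weeks. The limma fit gave an unadjusted p under 0.05 for 17 of the 79 at 48 hours (21.5%, beside 8.49% of all genes) and for 24 at 2 weeks (30.4%, beside 24.6% of all genes). The lists, like the members, were chosen with earlier results of these data known, so these shares are a description. Their median log2 difference was -0.07 at 48 hours and 0.01 at 2 weeks. No gene of these lists was called for a difference between the 2 CSC effects, where 2 of them and 876 of all genes had an unadjusted p under 0.05 in the limma fit.

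PRICKLE2, a cytoplasmic protein of planar cell polarity, was lower in CSC than in DMSO cells at both times. It had 2.55, 2.86 and 3.53 FPKM in CSC libraries and 5.66 and 5.83 FPKM in DMSO libraries at 48 hours, and 3.27, 3.86 and 4.18 FPKM in CSC libraries and 7.60, 7.31 and 6.91 FPKM in DMSO libraries at 2 weeks. The CSC mean was 51.9% of the DMSO mean at 48 hours and 51.8% at 2 weeks, with no overlap. The log2 difference was -0.85 ± 0.14 (limma adjusted p = 0.0213) at 48 hours and -0.87 ± 0.12 (adjusted p = 0.00160) at 2 weeks. The 48-hour call was lost without CSC 48 h replicate 1 or 2 (adjusted p = 0.0751 and 0.0597), DMSO 48 h replicate 2 or 3 (0.119 and 0.213) or DMSO 2 weeks replicate 2 (0.0509).

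SFRP4 and RSPO3 were lower in CSC than in DMSO cells at 2 weeks, each the 1 gene called of 4 tested in its list. SFRP4, which binds Wnt proteins outside the cell, had 2.46, 2.84 and 2.51 FPKM in CSC libraries and 5.16, 4.61 and 4.40 FPKM in DMSO libraries at 2 weeks, a log2 difference of -0.75 ± 0.15 (limma adjusted p = 0.0137). RSPO3, an R-spondin that raises frizzled levels at the membrane through LGR receptors, had 32.4, 37.9 and 36.8 FPKM in CSC libraries and 51.9, 53.6 and 49.2 FPKM in DMSO libraries, a difference of -0.53 ± 0.11 (adjusted p = 0.0144). Neither pair of groups overlapped. At 48 hours the differences were -0.44 ± 0.17 for SFRP4 (adjusted p = 0.449) and -0.59 ± 0.12 for RSPO3 (adjusted p = 0.0634). Both 2-week calls were lost without CSC 2 weeks replicate 1 (adjusted p = 0.0584 for SFRP4 and 0.0577 for RSPO3), CSC 2 weeks replicate 3 (0.0674 and 0.0536), DMSO 2 weeks replicate 1 (0.0666 and 0.0605) or DMSO 2 weeks replicate 2 (0.0530 and 0.0707).

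TLE4, a Groucho-family co-repressor that TCF factors recruit, was the 1 gene of these lists called higher. It had 7.05, 6.84 and 7.53 FPKM in CSC libraries and 4.50, 4.85 and 4.21 FPKM in DMSO libraries at 2 weeks, a log2 difference of 0.61 ± 0.10 (limma adjusted p = 0.00472). At 48 hours it had 6.45, 7.16 and 7.70 FPKM in CSC libraries and 5.53 and 5.51 FPKM in DMSO libraries, a difference of 0.33 ± 0.11 (adjusted p = 0.341). CSC libraries were above DMSO libraries at both times, and the share of all genes apart in this direction was not counted.

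**Figure D4:**
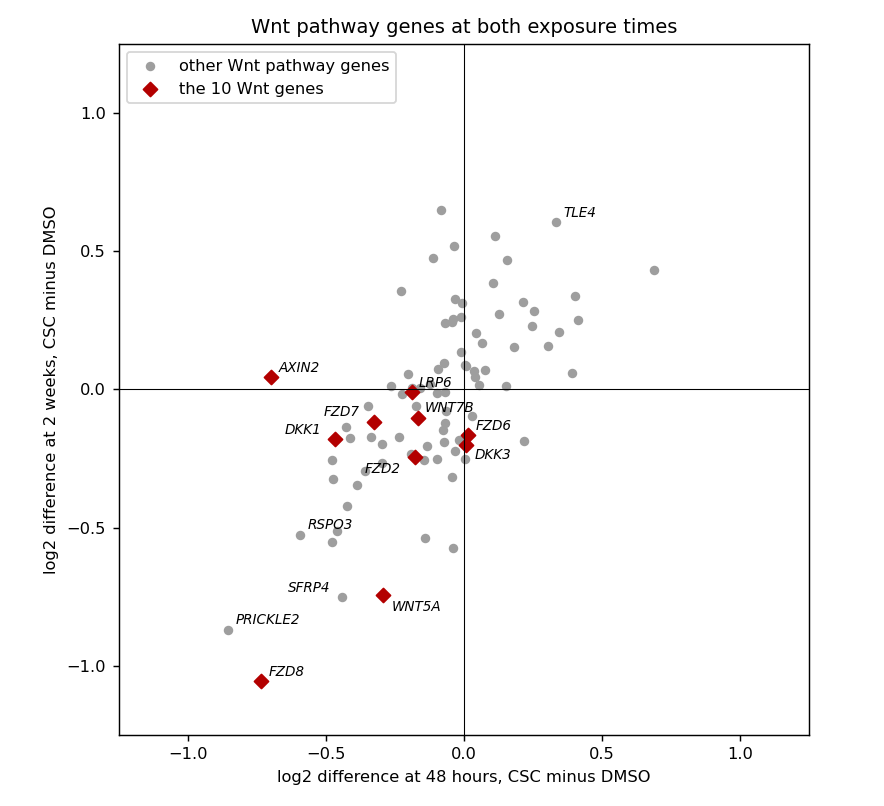
Log2 difference of (FPKM + 0.5), CSC minus DMSO, at 48 hours (horizontal) against 2 weeks (vertical) for the 10 Wnt genes (red diamonds) and the 79 other pathway genes tested (grey circles). Named grey points were called at either time. FZD8, at -0.73 and -1.06, and PRICKLE2, at -0.85 and -0.87, lie at the lower left, and AXIN2, at -0.70 and 0.04, lies on the axis of no difference at 2 weeks.

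The other receptors gave no call. Of the 5 frizzleds tested besides the members, 4 were lower in CSC cells at 48 hours and 5 at 2 weeks. CSC libraries lay below DMSO libraries without overlap for FZD5 at both times, and for FZD1 and FZD4 at 48 hours. Groups lay apart in this direction for 11.8% of all genes at 48 hours and for 9.84% at 2 weeks. FZD5 differed by -0.39 ± 0.17 at 48 hours (limma adjusted p = 0.571) and -0.35 ± 0.15 at 2 weeks (adjusted p = 0.186), and FZD1 by -0.43 ± 0.17 (adjusted p = 0.468) and -0.14 ± 0.15 (adjusted p = 0.599). ROR1, a receptor tyrosine kinase for WNT5A, went the other way, with 15.5, 13.6 and 22.3 FPKM in CSC libraries and 10.5 and 9.97 FPKM in DMSO libraries at 48 hours, and 10.6, 13.8 and 10.9 FPKM in CSC libraries and 9.20, 8.42 and 8.05 FPKM in DMSO libraries at 2 weeks. The CSC libraries lay above the DMSO libraries at both times, and the share of all genes apart in this direction was not counted. The differences of 0.69 ± 0.18 (limma adjusted p = 0.171) and 0.43 ± 0.16 (adjusted p = 0.130) were not called. LRP5, the partner of LRP6, had 34.2, 39.6 and 30.2 FPKM in CSC libraries and 26.4, 24.7 and 23.3 FPKM in DMSO libraries at 2 weeks, a difference of 0.47 ± 0.15 (adjusted p = 0.0794). At 2 weeks ROR1 was called without CSC 48 h replicate 3 (adjusted p = 0.0382), and LRP5 without CSC 48 h replicate 2 or 3 (0.0431 and 0.0477) or on the libraries compared (0.0483).

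Genes that set receptor turnover were lower in CSC cells without a call apart from RSPO3. All 4 genes tested in this list had negative differences at both times. LGR4, the R-spondin receptor, differed by -0.48 ± 0.16 at 48 hours (limma adjusted p = 0.355) and -0.26 ± 0.15 at 2 weeks (adjusted p = 0.295). RNF43, a ubiquitin ligase that removes frizzleds from the membrane and a β-catenin target, differed by -0.48 ± 0.26 (adjusted p = 0.685) and -0.55 ± 0.23 (adjusted p = 0.164, and 0.0251 on the libraries compared). In the destruction complex and dishevelled list 0 of 20 genes were called at either time, with APC2 nearest at -0.54 ± 0.15 (adjusted p = 0.0566) and AXIN1 at 0.39 ± 0.12 (adjusted p = 0.0759), both at 2 weeks. APC2 was called at 2 weeks with median-of-ratios, common-sum and quantile scaling (adjusted p = 0.0332, 0.0386 and 0.0433), without trend (0.0184) and without CSC 48 h replicate 3 (0.0450). AXIN1 and FRAT2, which binds the kinase GSK3, were called without CSC 2 weeks replicate 2 (0.0204 and 0.0339). Among β-catenin target genes 0 of 9 were called at either time. MYC differed by 0.41 ± 0.17 at 48 hours (adjusted p = 0.510) and 0.25 ± 0.15 at 2 weeks (adjusted p = 0.313), and BMP4 by -0.46 ± 0.26 (adjusted p = 0.707) and -0.51 ± 0.23 (adjusted p = 0.191).

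CELSR1, a cadherin of planar cell polarity, differed by -0.47 ± 0.12 at 48 hours (limma adjusted p = 0.128) and -0.33 ± 0.10 at 2 weeks (adjusted p = 0.0820). PRICKLE1, the paralogue of PRICKLE2, differed by -0.04 ± 0.20 (adjusted p = 0.979) and -0.57 ± 0.18 (adjusted p = 0.0813). Of the 13 genes in the planar polarity list, PRICKLE2 was the 1 called. At 2 weeks the median-of-ratios, common-sum and quantile scalings also called CELSR1 (limma adjusted p = 0.0306, 0.0287 and 0.0348), the first 2 of them PRICKLE1 (0.0415 and 0.0319), and CELSR1 was called without CSC 2 weeks replicate 2 (0.0347). Of the 3 other ligands tested, WNT3 differed by -0.23 ± 0.17 at 48 hours (adjusted p = 0.808) and 0.36 ± 0.15 at 2 weeks (adjusted p = 0.165). WNT10B and WNT5B had adjusted p-values of 0.389 and 0.457 at 2 weeks.

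The genes whose levels over the 11 libraries were most like those of FZD8, by Pearson correlation of log2(FPKM + 0.5) among 11904 genes, were PDE8B (r = 0.985), LINC00473 (0.977), SOCS5 (0.966), SMAD2 (0.956) and VEGFC (0.955). The libraries share their exposure groups, and these correlations are a description with no test. LINC00473, a long non-coding RNA, averaged 5.98 ± 0.976 FPKM in CSC and 13.1 ± 1.14 FPKM in DMSO libraries at 48 hours, and 4.52 ± 0.244 FPKM in CSC and 12.6 ± 0.682 FPKM in DMSO libraries at 2 weeks. PDE8B, a cyclic AMP phosphodiesterase, averaged 1.80 ± 0.279 FPKM in CSC and 2.77 ± 0.102 FPKM in DMSO libraries at 48 hours, and 1.31 ± 0.102 FPKM in CSC and 2.67 ± 0.0875 FPKM in DMSO libraries at 2 weeks.

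The 5 genes nearest to AXIN2 by the same measure were AKR1C1 (r = 0.962), FBXL4 (0.942), FZD4 (0.941), RMND5A (0.936) and AKR1C2 (0.936). AKR1C1, an aldo-keto reductase, averaged 112.2 ± 29.9 FPKM in CSC and 150.9 ± 49.7 FPKM in DMSO libraries at 48 hours, and 179.8 ± 22.8 FPKM in CSC and 178.4 ± 18.1 FPKM in DMSO libraries at 2 weeks. Like AXIN2, it spread widely at 48 hours and had close means in the 2 exposures at 2 weeks. FZD8 and AXIN2 correlated with each other at r = 0.170 over the 11 libraries, again a description with no test.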

How the data were processed

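Per the labels' protocols, the authors removed ribosomal RNA (Ribo-Zero Gold), sequenced on a HiSeq machine and mapped reads to hg19 by TopHat2 2.0.9. CASAVA 1.7.1a5 is also named in the submitters' processing notes. The quantifier, annotation, strand setting and read totals are not given in the sources. Per the file headers, the authors deposited an FPKM and its confidence bounds for each gene and locus (25275 lines per library, 23609 symbols). FPKM was summed over loci for 548 symbols, and 1 symbol marked as failed was left out. Since FPKM are not counts, limma 3.58.1 (R 4.3.3; lmFit, contrasts.fit, eBayes with trend) was fitted to log2(FPKM + 0.5) over 11 libraries and 4 groups, for genes with at least 1 FPKM in at least 2 libraries, and was tested on simulated data. A fold on this scale understates the change of low genes. With no counts, no counting interval is given. The labels do not say that replicates came from separate cultures, so p-values measure the spread between these libraries, which may be technical. No 2 libraries were identical. The members and lists were chosen with earlier results of these data known. Of each list, genes named are those called and up to 3 with the smallest unadjusted p in either CSC comparison; for FZD8 and AXIN2, also the 5 best correlated genes. Alternatives were other pseudocounts, filters, scalings, eBayes settings, a replicate block, fits on the libraries compared, symbols at 1 locus and each library left out. DMSO 48 h replicate 1 was not analysed here.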

Additional observations from a re-analysis of the deposited data

How the results depend on the processing

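Counts of genes called moved as follows. At 48 hours 36 genes (13 higher, 23 lower) became 59 with median-of-ratios scaling, 69 with quantile normalization and 3 in a fit on the libraries compared, and 11 to 98 when each library was left out. At 2 weeks 676 (376 higher, 300 lower) became 416 with no filter on low values and 230 to 1844 with a library left out, and the split turned to 289 higher and 459 lower with median-of-ratios scaling, 264 and 486 with a common sum, and 310 and 433 with quantile normalization. Between DMSO times 96 (82 higher, 14 lower) became 42 with no filter, 59 (43 and 16), 46 (32 and 14) and 60 (41 and 19) under those 3 scalings, 260 on the libraries compared and 26 to 210 with a library left out. The difference of the CSC effects had 5, then 3 with no filter, 1 without trend and 0 to 10 with a library left out. A common sum moved the median of all genes from 0.09 to -0.04 at 2 weeks, from 0.09 to -0.02 between DMSO times and from 0.09 to -0.08 for the difference of effects.

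Of the members, 1 was called at 48 hours, but 0 with a pseudocount of 1, no filter, no trend, the replicate block or the libraries compared, and 0 to 1 with a library left out. At 2 weeks 1 was called, and 2 (FZD8 and WNT5A) with a pseudocount of 1, no filter, no trend, robust estimation or the libraries compared, and 1 to 2 with a library left out. Between DMSO times 0 became 1 on the libraries compared and 0 to 1 with a library left out. Of the other pathway genes, 1 at 48 hours became 0 with no filter, a common sum or the libraries compared and 0 to 1 with a library left out; 4 at 2 weeks became 7 with median-of-ratios scaling or a common sum and 2 to 8 with a library left out; 0 between DMSO times became 1 without trend, 2 on the libraries compared and 0 to 2 with a library left out. Over the 4 frizzled members alone, FZD8 held 12.1% (CSC) and 17.6% (DMSO) at 48 hours and 8.01% (CSC) and 13.9% (DMSO) at 2 weeks, and FZD2 held 60.9% (CSC) and 58.2% (DMSO), then 61.8% (CSC) and 59.0% (DMSO).

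Signs turned for differences near 0. Median-of-ratios scaling gave -0.0039 for DKK3 at 48 hours, -0.037 for AXIN2, -0.074 for LRP4 and -0.085 for WLS at 2 weeks, -0.018 for WNT7B for the difference of effects. A common sum gave 0.00066 for FRAT2, 0.00032 for KREMEN2, 0.019 for PORCN and 0.019 for WNT10B at 48 hours, -0.076 for AXIN2, -0.11 for LRP4 and -0.13 for WLS at 2 weeks, -0.022 for LRP6 between the DMSO times, -0.00017 for LRP6 and -0.12 for WNT7B for the difference of effects. Quantile normalization gave -0.014 for DKK3 at 48 hours, -0.010 for AXIN2, -0.040 for LRP4 and -0.064 for WLS at 2 weeks, -0.044 for DKK1 and -0.034 for LRP6 between the DMSO times, -0.097 for WNT7B for the difference of effects. The replicate block gave -0.022 for DKK3 at 48 hours. With a library left out, the differences at 48 hours ran from -0.30 to 0.0054 for BCL9L, -0.24 to 0.018 for CTNNBIP1, -0.058 to 0.086 for DKK3, -0.16 to 0.097 for FRAT2, -0.15 to 0.14 for FZD6, -0.16 to 0.14 for KREMEN2, -0.18 to 0.16 for PORCN, -0.24 to 0.16 for PRICKLE1, -0.41 to 0.096 for WLS and -0.13 to 0.20 for WNT10B. With a library left out, the differences at 2 weeks ran from -0.017 to 0.16 for AXIN2, -0.039 to 0.0079 for FZD4, -0.088 to 0.083 for LRP4, -0.11 to 0.061 for LRP6 and -0.19 to 0.11 for WLS. With a library left out, the differences between the DMSO times ran from -0.26 to 0.59 for AXIN2, -0.26 to 0.53 for DKK1, -0.043 to 0.066 for FZD8 and -0.013 to 0.20 for LRP6. With a library left out, the values for the difference of effects ran from -0.11 to 0.68 for DKK1, -0.23 to 0.094 for FZD2, -0.11 to 0.49 for FZD7 and -0.090 to 0.18 for WNT7B. The causes were not tested. Of 890 recomputed member values, 834 kept direction and call.

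Whether the replicate numbers pair the libraries could not be decided. Residuals of the same number correlated at 0.207 and 0.222 at 48 hours and at 0.222, -0.151 and -0.121 at 2 weeks. Those of different numbers ran from -0.222 to 0.0433 at 48 hours and from -0.194 to 0.282 at 2 weeks. The residuals of the 2 DMSO libraries at 48 hours mirror each other by construction, so the values there are tied. With the replicate block, FZD8 at 48 hours was -0.75 (limma adjusted p = 0.0700). FZD8 at 48 hours was also not called with a pseudocount of 1 (adjusted p = 0.0516), no filter (0.119), no trend (0.0683) or the libraries compared (0.423). PRICKLE2 at 48 hours was not called with no filter (0.0805), a common sum (0.0617) or the libraries compared (0.396). Read totals are unknown, so the precision of low levels such as WNT5A and AXIN2 cannot be given beyond the deposited bounds.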

Other observations

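The deposited upper bound of DKK1 lay below its own FPKM in 6 of the 11 libraries, DMSO 48 h replicate 3, CSC 2 weeks replicates 2 and 3, and the 3 DMSO libraries at 2 weeks. In DMSO 48 h replicate 3 DKK1 had 124.9 FPKM with bounds of 108.2 and 122.7 FPKM. No other member had a value outside its bounds. Between 299 and 900 of the 25275 lines of a library had an FPKM above its upper bound, most in CSC 2 weeks replicate 2.

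Of 11 annotated genes that overlap a member, 3 have a value here. PRKG1-AS1, which overlaps DKK1 on the other strand over 227 bases, had 0.292 to 0.836 FPKM, and BCL2L14, which overlaps LRP6 on the other strand, had 0 to 0.505 FPKM. MIR4683, on the same strand within FZD8, was listed at 0 in all 11 libraries, which may only mean that so short a locus was not quantified.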
